A study of Gossypium barbadense and Gossypium hirsutum with 8 samples.

Results

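The 300 probe sets described here carry the highest signals among those that the Affymetrix cotton array took from sequences of Gossypium raimondii, a wild diploid cotton. A probe set is a group of short oligonucleotides on the array that were designed together on 1 transcript sequence. The members were chosen by their measured level: of the 7068 probe sets whose identifiers start with Gra. or GraAffx., they are the 300 with the highest mean log2(signal + 16) over the 8 arrays as deposited. They make up 4.24% of the G. raimondii probe sets and belong to 24029 probe sets in all, once Affymetrix's own controls are left out. Their high level was the criterion of choice and is therefore a description and no finding.

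The arrays measured RNA of cotton fibre at 10 days post anthesis, that is, days after flowering. There were 3 high-yielding backcross inbred lines (HY BILs), 3 low-yielding backcross inbred lines (LY BILs), the high-yielding parent SG747 (G. hirsutum) and the low-yielding parent Giza75 (G. barbadense). Each line and each parent had 1 array. A backcross inbred line is made by crossing 2 parents, crossing the offspring back to a parent and then inbreeding, so that each line carries its own mixture of the parental genomes. HY BILs 1, 2 and 3 are labelled NMGA144, NMGA017 and NMGA026, and LY BILs 1, 2 and 3 NMGA066, NMGA095 and NMGA023. The design text gives the names of HY BILs 1 and 3 the other way round, which does not change the groups. The organism label is G. hirsutum for all HY lines and G. barbadense for all LY lines, although every line comes from both species. The labels name several field sites and years without saying which of them supplied the fibre.

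As background, G. hirsutum and G. barbadense are allotetraploid: their nuclei hold an A subgenome and a D subgenome inherited from different diploid ancestors. G. raimondii is the closest living relative of the D-genome ancestor, and it makes no spinnable lint itself. Cotton fibres are single cells of the seed coat that elongate over several weeks, driven by turgor and by extension of the cell wall. A probe set designed on a G. raimondii transcript can bind RNA from the D copy of a gene, and from the A copy where the copies are alike. What a member measures in tetraploid fibre is therefore a sum whose shares cannot be told apart here.

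A G. barbadense annotation of 74561 genes held 0 of the member identifiers, so that no member is given a gene name or a role. The fibre label could not be checked against marker genes for the same reason. The members are called by their rank in mean level, from rank 1 (highest) to rank 300, and 7 of them also by identifier. Rank 1 had a mean log2 level of 13.40 and rank 300 of 8.10. The next probe set, just outside at position 301, lay at 8.10 as well (8.101 inside against 8.098 outside). Among all 24029 probe sets the members ran from the 4th to the 3551st by level. Signals of different probe sets depend on their oligonucleotides, so ranks do not compare transcript amounts between genes.

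The identifiers record how each probe set was designed, which the choice of members did not use. The suffix _s_at marks oligonucleotides shared by several transcripts, _x_at marks some that cross-match, and plain _at marks a set held to be unique. Among the members 242 (80.7%) ended in _s_at, against 47.9% of all G. raimondii probe sets. A further 37 (12.3%) ended in _x_at, against 5.45%, and 2 in _a_at. Only 19 members (6.33%) were plain _at sets, against 43.6% of all G. raimondii sets. The members were thus mostly probe sets whose suffix marks oligonucleotides that match more than 1 transcript. How many transcripts each of them measured in fibre was not tested. The orientation tag was S for 196 members (65.3%), against 34.7% of all G. raimondii sets, and A for 104. By prefix, 188 members were Gra. sets, out of 3423, and 112 were GraAffx. sets, out of 3645. These shares are counts of identifiers, with no test.

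The arrays differed in brightness before normalization, with medians over all probe sets of 13.5, 26 and 15.7 in HY BILs 1, 2 and 3, against 36.3, 30.5 and 13.2 in LY BILs 1, 2 and 3. The medians were 22.3 for the HY parent and 17.0 for the LY parent. HY BIL 2 and LY BILs 1 and 2 were thus the brightest lines. Unless said otherwise, signals below are after quantile normalization, which gives every array the same distribution of values. The medians of the members then lay between 639 and 722 on all 8 arrays, against 404 to 959 as deposited. The number of arrays limits the precision of every value. In a bulk sample, fewer cells of a type and less RNA per cell cannot be told apart.

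The members held a similar share of the summed signal on every array. It was 7.15%, 7.97% and 7.28% in HY BILs 1, 2 and 3, against 7.75%, 7.61% and 7.53% in LY BILs 1, 2 and 3. The HY parent had 7.67% and the LY parent 7.44%. The group means were 7.47 ± 0.44% (SD, n = 3) in HY and 7.63 ± 0.11% (SD, n = 3) in LY lines. The groups overlapped, and the difference of -0.16 percentage points lay within the spread of the HY lines.

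Most members at the top of the ranking were steady across the genotypes. Rank 1 had signals of 10367, 10138 and 11329 in the HY lines, against 9674, 9562 and 13438 in the LY lines, with 11329 in the HY parent and 12378 in the LY parent. Rank 2 ranged from 8748 to 10767 over the 8 arrays, and rank 4 from 6829.7 to 9562. The steadiest member by range over the 8 arrays was rank 9, with 6423, 7182 and 6542 in the HY lines, against 6718, 6829.7 and 6218 in the LY lines, and 6669.5 and 6648 in the HY and LY parents. Its highest array was 1.15-fold its lowest. Rank 7 was more even among the 6 lines, with 6943 to 7512 (SD on the log2 scale 0.04, against 0.07 for rank 9). It ranged 1.18-fold over the 8 arrays, with the parents above every line at 7744 (HY parent) and 8209 (LY parent). Rank 3 was lower in the LY parent, at 5832, than on the other 7 arrays, where it ranged from 8209 to 11623. Rank 6 varied most among the first 10, with 4858, 8672 and 5522 in the HY lines, against 10138, 6739.6 and 9356 in the LY lines. Its identifier shares a cluster number with that of rank 14, which had 2990.4, 6915 and 3413 in the HY lines, against 7512, 4292 and 6718 in the LY lines. Both probe sets placed HY BIL 2 far above the other HY lines and LY BIL 2 below the other LY lines. Neither passed the test of the yield groups described below.

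Over all members the highest array was a median of 2.16-fold the lowest, as a ratio of signal + 16, and the smallest ratio was 1.15-fold. The largest ratio, of rank 76, rests on a signal below the array median in the LY parent and is given as signals further on. For 123 of the 300 members (41%) the 8 arrays lay within 2-fold of each other, which held for 34.6% of all 14417 probe sets tested and for 42.5% of the 3251 other probe sets at or above the level of rank 300. For 34 members (11.3%) they spread over more than 4-fold, against 12.6% of all tested and 12.5% of those other probe sets. The spread of the members was thus close to that of other probe sets at their level. The median SD over the 6 lines was 0.36 on the log2 scale, against 0.40 over all tested probe sets. It was 0.29 for ranks 1 to 75 and 0.41 for ranks 226 to 300. Members spread over more than 4-fold numbered 6 among ranks 1 to 75 and 13 among ranks 226 to 300. The LY parent held the highest value of 57 members (19%, against 18.2% of all tested probe sets) and the lowest value of 57 (19%, against 16.8%). LY BIL 3 held the lowest value of 63 members (21%, against 18.2%), and HY BIL 1 the highest of 15 (5%, against 8.48%).

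**Figure D1:**
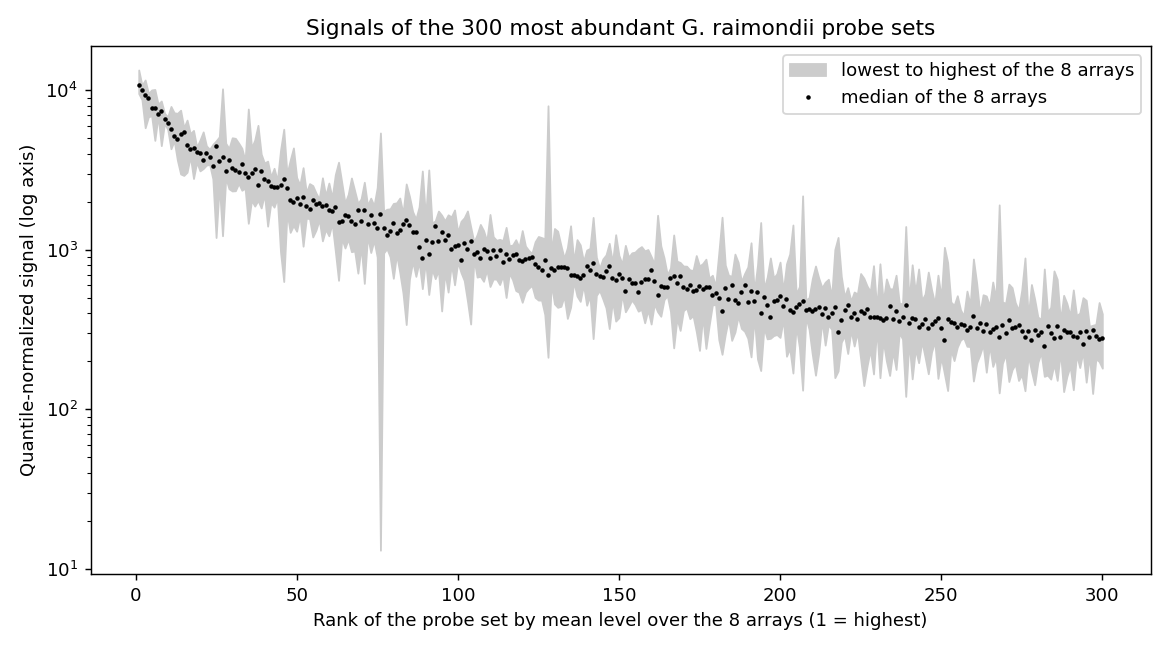
Quantile-normalized signal (log axis) of the 300 members in order of rank. Points are medians of the 8 arrays and the grey band runs from the lowest to the highest array; the downward spike at rank 76 is the LY parent at 13.1.

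The first question, which the design text names, was whether transcript levels differed between high-yielding and low-yielding lines. No member passed the adjusted threshold. The test was limma with an intensity trend on log2(signal + 16), fitted on all 14417 probe sets above the lowest 40% by mean level, with Benjamini-Hochberg adjustment over all of them. All 300 members were in the test. The lowest adjusted p among members was 0.994, and over the whole array 0 probe sets passed (0%). At an unadjusted p under 0.05 there were 6 members (2%), against 2.11% of all tested probe sets. With at least a 2-fold difference as well there were 4 members (1.33%), 1 higher and 3 lower in HY lines, against 0.777% of all tested. These shares lay near the background of the array. The members' median log2 difference was 0.04, the same as the 0.04 over all tested probe sets, and their quartiles were -0.16 and 0.21.

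The largest difference belonged to the member of rank 207, which was chosen for description after its values were seen, as were ranks 239, 268, 35, 49 and 174. It had signals of 192, 502 and 132 in HY BILs 1, 2 and 3, against 2181, 778 and 454 in LY BILs 1, 2 and 3. HY BIL 2 lay above LY BIL 3, so the groups overlapped. The log2 difference was -1.90 ± 0.62 (SE; limma, unadjusted p = 0.0137, adjusted p = 0.994). The parental signals were ordered like the lines, at 189 in the HY parent and 741 in the LY parent.

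Ranks 239 and 268 followed a similar order of lines. Rank 268 had 154, 642 and 127 in the HY lines, against 1914, 545 and 406 in the LY lines. Its log2 difference of -1.61 ± 0.70 (limma, adjusted p = 0.994) was -0.95 without LY BIL 1, the line with the highest signal. Its parents differed little, with 159.5 in the HY parent and 162 in the LY parent, so that 4 of the 6 lines were over 2-fold above both. Rank 239 had 120.4, 598 and 129 in the HY lines, against 1401, 321 and 612 in the LY lines. Its log2 difference of -1.54 ± 0.67 (limma, adjusted p = 0.994) was -1.0 without LY BIL 1. In ranks 207, 239 and 268 alike, LY BIL 1 was the highest line and HY BILs 1 and 3 were the lowest. LY BIL 1 also had the highest median over all probe sets as deposited and HY BILs 1 and 3 were among the 3 dimmest lines. The part of brightness in these differences was not tested.

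Rank 35 was the one member called higher in HY lines. Its signals were 6160.0, 2170.3 and 7642 in HY BILs 1, 2 and 3, against 1691, 3537 and 1467 in LY BILs 1, 2 and 3. HY BILs 1 and 3 stood above all LY lines, while HY BIL 2 lay below LY BIL 2. The log2 difference was 1.17 ± 0.48 (limma, unadjusted p = 0.0382, adjusted p = 0.994). The parents lay in the same order, at 5103 in the HY parent and 1791 in the LY parent.

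The count of 4 members depended on single lines. It was 1 without HY BIL 1, 10 without HY BIL 2 and 0 without HY BIL 3. It was 1 without LY BIL 1, 9 without LY BIL 2 and 16 without LY BIL 3. The adjusted count stayed at 0 in each of these fits. The counts without single lines were made for the members only, so they cannot be set against all tested probe sets.

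The remaining members at an unadjusted p under 0.05 differed by less than 2-fold. Rank 49 had 2327, 1932 and 2166 in the HY lines, against 1421, 1444 and 1673 in the LY lines, a log2 difference of 0.50 ± 0.20. The groups did not overlap. Its parents lay the opposite way, at 2042 in the HY parent and 4358 in the LY parent, so that every LY line lay below both parents. Rank 174 had 308, 691 and 387 in the HY lines, against 921, 826 and 647 in the LY lines, a log2 difference of -0.83 ± 0.35. HY BIL 2 overlapped the LY lines.

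**Figure D2:**
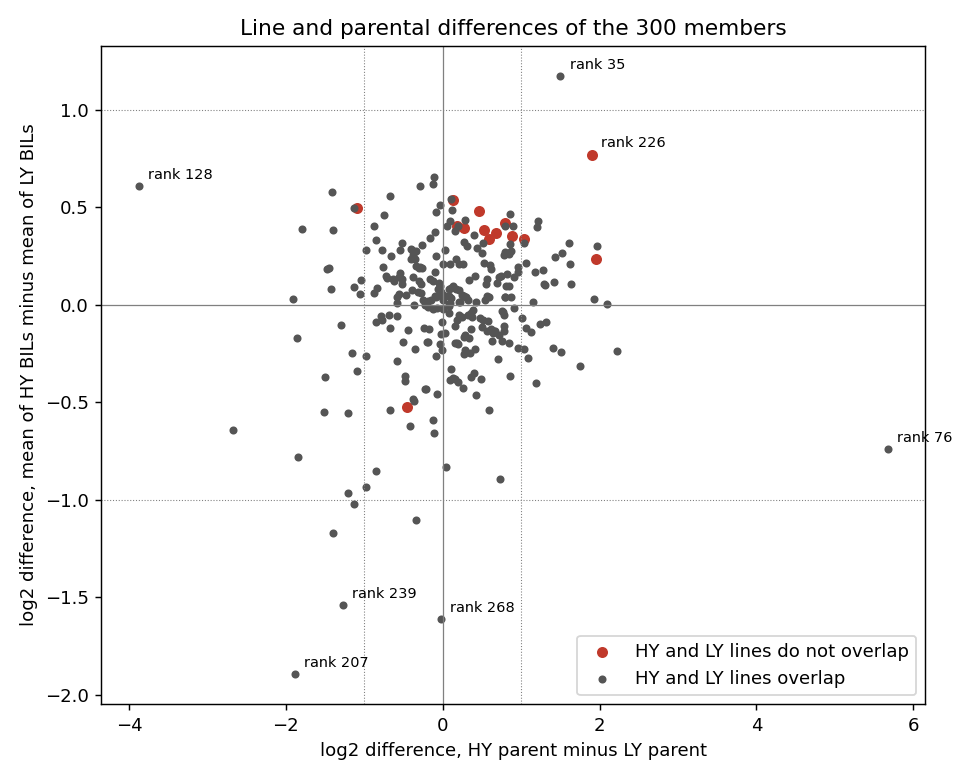
Each point is 1 of the 300 members, with the log2 difference between the parents (HY minus LY) on the horizontal axis and that between the line means (HY minus LY) on the vertical axis. Dotted lines mark 2-fold and red points are the 14 members whose line groups do not overlap. Beyond 2-fold between the line groups lie 7 members, 1 higher and 6 lower in HY lines. Of all 14417 tested probe sets, 26 were higher and 200 lower by as much.

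In 14 members (4.67%) the HY and LY lines did not overlap, against 6.21% of all tested probe sets. The HY lines were the higher group in 13 of them (4.33%, against 4.18% of all tested) and the lower in 1 (0.333%, against 2.03%). Of the 3251 other probe sets at or above the level of the last member, 4.95% had separate groups. The HY lines were higher in 4.40% of these other probe sets and lower in 0.554%. The low share with lower HY lines was thus shared by other probe sets at the members' level. Gra.1571.1.S1_s_at (rank 226) had the largest difference of the 13, with 664, 406 and 595 in the HY lines, against 195, 384 and 402 in the LY lines. The group means were 555 ± 133 (SD, n = 3) in HY and 327 ± 115 (SD, n = 3) in LY lines, a log2 difference of 0.77 ± 0.36 (limma, adjusted p = 0.994). HY BIL 2 and LY BIL 3 were nearly level, and without LY BIL 1 the log2 difference was 0.45. The parents lay in the same order and further apart, at 572 in the HY parent and 141 in the LY parent.

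GraAffx.8187.1.S1_s_at (rank 290) came next, with 333, 310.4 and 298 in the HY lines, against 186, 223 and 226 in the LY lines. Its groups were narrow, 314 ± 17.9 in HY and 212 ± 22.1 in LY lines (SD, n = 3 each), with a log2 difference of 0.54 ± 0.28 (limma, adjusted p = 0.994). Both parents, at 386 (HY parent) and 350.4 (LY parent), lay above every line. Gra.2322.1.S1_x_at (rank 87) was the 1 member with lower HY lines, at 1161, 1438 and 682, against 1561, 1526 and 1445 in the LY lines. Its log2 difference of -0.52 ± 0.30 (limma, adjusted p = 0.994) was -0.22 without HY BIL 3. The other members with separate groups differed by 0.24 to 0.50 on the log2 scale. Rank 28, for example, had 3933, 3143 and 4174 in the HY lines, against 2835, 2962 and 3029 in the LY lines.

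Separation of the lines depended on the scaling between arrays. Of the 14 members, 7 kept separate groups in the same order with cyclic loess, 3 with median centring and 0 on the deposited values, where 7 other members had separate groups. The direction split depended on it as well: HY lines were the higher group in 13 of 14 members with quantile normalization, 6 of 12 with cyclic loess, 10 of 13 with median centring and 3 of 7 on the deposited values. Over all tested probe sets this split was made with quantile normalization only. GraAffx.8187.1.S1_s_at stayed separate with cyclic loess only, as did Gra.2322.1.S1_x_at, and Gra.1571.1.S1_s_at with none of these 3 scalings. The log2 differences of these 3 members kept their signs under every scaling.

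**Figure D3:**
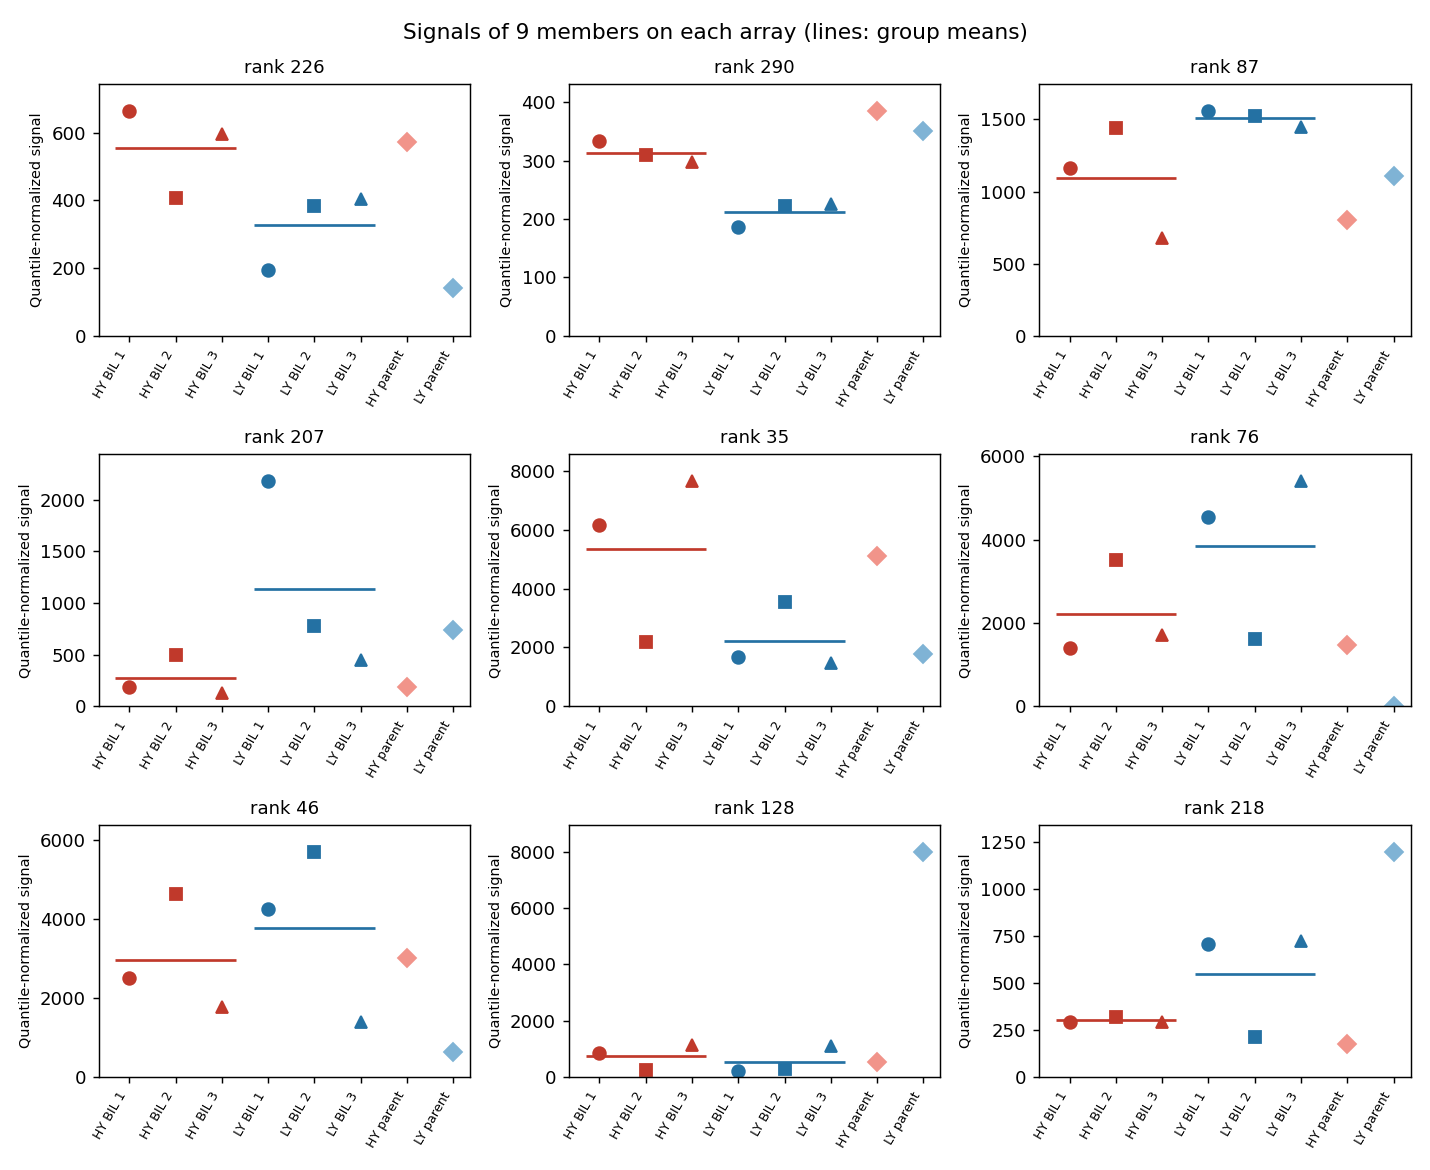
Quantile-normalized signal of 9 members on each array, with HY lines in red, LY lines in blue and the parents in the pale colours; horizontal bars are group means of 3 lines. Ranks 226, 290 and 87 have separate line groups, ranks 207 and 35 overlap, and ranks 76, 46, 128 and 218 are those furthest apart between the parents.

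The second comparison set the parents against each other, SG747 over Giza75. With 1 array each it carries no error estimate and no test. SG747 and Giza75 belong to separate species, and equal binding of the probes to both was not tested, so a low signal need not mean a low transcript level. At least 2-fold apart were 62 members (20.7%, against 18.1% of all tested probe sets). Of these, 35 (11.7%, against 8.8%) were higher in the HY parent and 27 (9%, against 9.29%) were higher in the LY parent. Only 5 members (1.67%, against 2.86%) were at least 4-fold apart. Of the 3251 other probe sets at or above the level of rank 300, 17.7% were at least 2-fold and 3.88% at least 4-fold apart. The members' median log2 difference was 0.11, against 0.03 over all tested. Differences of 2-fold occurred at all levels, with 14 among ranks 1 to 75, 17 among ranks 76 to 150, 16 among ranks 151 to 225 and 15 among ranks 226 to 300.

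The balance of the 2 directions rested on the scaling. It was 35 against 27 with quantile normalization, 32 against 34 with cyclic loess, 74 against 16 with median centring and 98 against 10 on the deposited values. With cyclic loess these were 10.7% and 11.3% of members, against 7.27% and 10.1% of all tested probe sets. With median centring they were 24.7% and 5.33%, against 14.7% and 6.42%. On the deposited values they were 32.7% and 3.33%, against 21.5% and 4.29%. The balance over all tested probe sets thus moved with the scaling as well. The deposited values shift all tested probe sets by a median of 0.42 toward the HY parent (0.20 with median centring), and the members by 0.68 (0.47). Measured from the shift of all probe sets, 53 members were at least 2-fold higher and 26 lower in the HY parent on the deposited values. The same count over all probe sets was not made, so the 53 and 26 show no lean particular to the members. Of the 62 members called with quantile normalization, 59 were called in the same direction with cyclic loess, 51 with median centring and 45 on the deposited values.

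**Figure D4:**
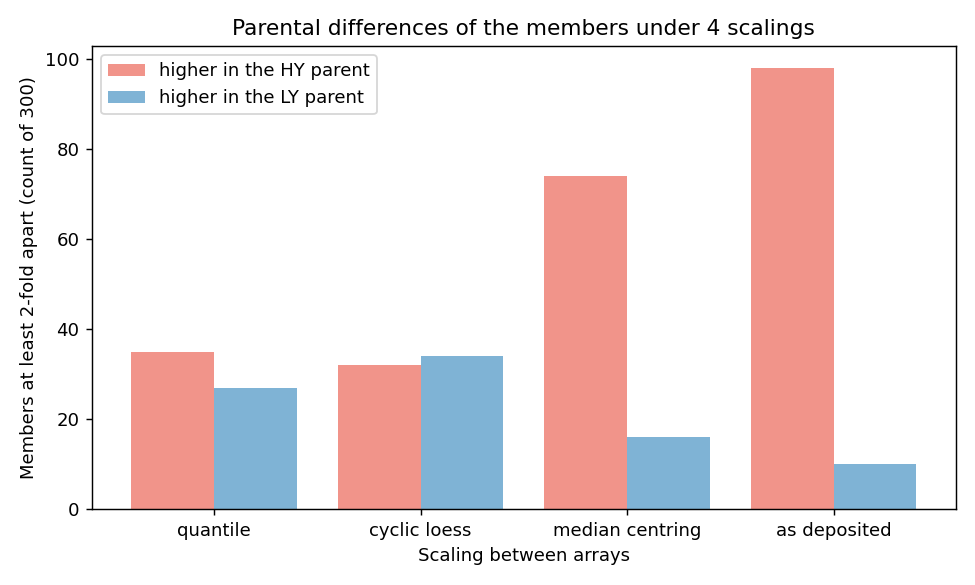
Number of the 300 members at least 2-fold higher in the HY parent (pink) or in the LY parent (light blue) under 4 scalings between arrays. The pairs of bars stand at 35 and 27, 32 and 34, 74 and 16, and 98 and 10. In the same order, the shares of all tested probe sets were 8.8% and 9.29%, 7.27% and 10.1%, 14.7% and 6.42%, and 21.5% and 4.29%.

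Gra.207.1.A1_s_at (rank 76) showed the largest difference between the parents, 1469 in the HY parent, against 13.1 in the LY parent. On the deposited scale these signals were 1842 in the HY parent and 10.9 in the LY parent, the second below the median of its array over all probe sets. The log2 difference of 5.68 therefore rests on the pseudocount of 16, and was 4.31 with a pseudocount of 64 and 6.71 with 1. Every line carried a strong signal, with 1404, 3519 and 1719 in HY BILs 1, 2 and 3, against 4547, 1619 and 5407 in LY BILs 1, 2 and 3. Only the LY parent was low, and 5 of the 6 lines exceeded the HY parent. No LY line resembled the LY parent for this probe set.

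GraAffx.33115.2.S1_s_at (rank 46) had 3005 in the HY parent, against 632 in the LY parent (log2 difference 2.22). Its lines had 2519, 4633 and 1777 (HY), against 4251, 5710.1 and 1402 (LY), all above the LY parent. The 3 brightest arrays among the lines, HY BIL 2 and LY BILs 1 and 2, had the highest signals for this member. The part of brightness in that order was not tested. Rank 84 (log2 difference 2.09 between the parents), rank 104 (1.97), rank 95 (1.95) and rank 25 (1.92) came next, and in each the LY parent lay below every line. They were taken in order of the parental difference, so a low value on the 1 LY parent array is close to the criterion of choice. For rank 25 the lines had 4463, 4557 and 3871 (HY), against 4463, 4825 and 3432 (LY), with 4577 in the HY parent and 1195 in the LY parent.

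In the other direction, GraAffx.28720.2.S1_x_at (rank 128) had 532 in the HY parent, against 8009 in the LY parent, a log2 difference of -3.87. No line came near the LY parent, with 858, 240.3 and 1128 in the HY lines, against 212, 274 and 1081 in the LY lines. HY BILs 1 and 3 and LY BIL 3, the 3 dimmest line arrays, were the 3 highest lines. Gra.2386.3.S1_s_at (rank 218) had 174 in the HY parent, against 1196 in the LY parent (log2 difference -2.68). Its HY lines were close together at 293, 320.4 and 294, while the LY lines had 704, 213 and 722. LY BILs 1 and 3 lay nearer the LY parent on this probe set, and LY BIL 2 lay below all HY lines, nearer the HY parent.

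Probe sets of the same cluster give further values for the parental differences. Of the 62 members, 23 had 1 or more other tested probe sets with the same cluster number, 26 in all. Of these 26, 23 differed between the parents in the same direction, 8 of them by at least 2-fold, and 0 differed by at least 2-fold in the opposite direction. For GraAffx.28720.2.S1_x_at the other probe set had a log2 difference of -1.22, and for GraAffx.33115.2.S1_s_at of 1.08. Both other probe sets carried the opposite orientation tag, A against S. Their mean log2 levels were lower, at 6.60 and 6.17, against 9.54 and 11.19 for the 2 members. Whether such probe sets measure the same transcript was not tested, and no such share is given for members less than 2-fold apart. Among the members themselves, 3 clusters held a pair. Ranks 6 and 14 differed between the parents by -0.38 and -0.68 on the log2 scale, and ranks 136 and 160 by 0.36 and 0.85. Ranks 194 and 196 differed by -1.91 and 0.15. That last pair shows that probe sets of 1 cluster need not report the same difference.

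The parental and line contrasts share no array. Among the 62 members at least 2-fold apart between the parents, the line difference had the same sign in 36 (58.1%), against 63.3% of all tested probe sets at least 2-fold apart. Among the members the count was 22 of the 35 higher in the HY parent and 14 of the 27 higher in the LY parent.

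Each line was also placed between the parents over the 62 members. Its log2 distance from the mean of both parents was regressed through the origin on the HY parent's distance from that mean, which gives a slope of 1 for a line like the HY parent and of -1 for one like the LY parent. The positions were 0.63, 0.96 and 0.66 in HY BILs 1, 2 and 3, against 0.71, 0.97 and 0.21 in LY BILs 1, 2 and 3. All lines thus lay on the side of the HY parent for these members. The group means were 0.75 ± 0.18 (SD, n = 3) in HY and 0.63 ± 0.39 (SD, n = 3) in LY lines. The groups overlapped, and the difference of 0.12 was smaller than the spread in either group.

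A slope weights large parental differences most, and Gra.207.1.A1_s_at outweighs every other member. Without it the positions were 0.55, 0.85 and 0.56 in the HY lines, against 0.52, 0.95 and -0.11 in the LY lines. LY BIL 3 then lay just past the midpoint, so that its side depended on 1 member. Over all 2608 tested probe sets at least 2-fold apart the positions were 0.61, 0.58 and 0.52 in HY lines, against 0.33, 0.72 and -0.04 in LY lines. On the deposited values 108 members were at least 2-fold apart, 98 higher and 10 lower in the HY parent. Over this other set of members the positions were -0.01, 0.87 and 0.07 in the HY lines, against 0.87, 1.14 and -0.59 in the LY lines. The 3 brightest line arrays had the 3 highest of these positions, and the part of brightness was not tested.

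Counted member by member, the 35 members higher in the HY parent were nearer that parent in 31, 30 and 34 cases in HY BILs 1, 2 and 3, against 29, 34 and 17 in LY BILs 1, 2 and 3. The 27 members higher in the LY parent were nearer the HY parent in 19, 21 and 22 cases in the HY lines, against 16, 23 and 9 in the LY lines. LY BIL 3 was the only line nearer the LY parent for most members of both sets. Shares over all tested probe sets at least 2-fold apart stand beside these counts. Of those higher in the HY parent, 80.3%, 83.3% and 78.8% were nearer it in the HY lines, against 71.1%, 85.0% and 49.8% in the LY lines. Of those higher in the LY parent, 75.4%, 73.4% and 73.4% were nearer the HY parent in the HY lines, against 62.8%, 80.7% and 31.1% in the LY lines. The counts of LY BIL 3 thus lay near its array-wide shares.

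**Figure D5:**
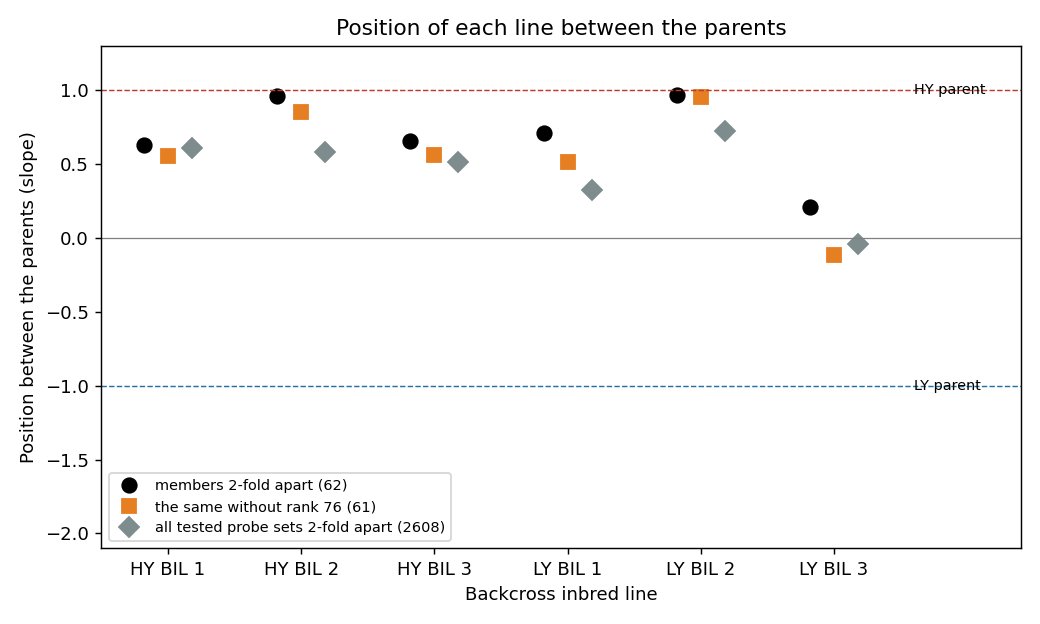
Position of each line between the parents (slope; 1 is the HY parent, -1 the LY parent) over the 62 members at least 2-fold apart, over the same members without rank 76, and over all 2608 tested probe sets at least 2-fold apart. LY BIL 3 has the lowest position in all 3 sets and LY BIL 2 the highest.

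Across the 300 members, the log2 signals of the arrays had Pearson correlations between 0.70 (LY BIL 2 with the LY parent) and 0.96 (HY BIL 1 with HY BIL 3). These values are a description over probe sets that share an array and differ widely in level. HY BIL 2 correlated with LY BILs 1 and 2 at 0.95 and 0.96, above its 0.89 and 0.86 with HY BILs 1 and 3. LY BIL 3 correlated with HY BILs 1 and 3 at 0.91 and 0.92, and with LY BILs 1 and 2 at 0.79 and 0.76. The resemblance among lines thus did not follow the yield groups. HY BIL 2 and LY BILs 1 and 2 are the 3 brighter line arrays and the others the 3 dimmer ones, and the part of brightness in this pattern was not tested.

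For 12 members all 6 lines lay outside the range of the parents, above both in 3 (1%, against 1.96% of all tested probe sets) and below both in 9 (3%, against 2.98%). Rank 152 had 508, 483 and 465 in the HY lines, against 592, 409 and 944 in the LY lines, all below the 1067 of the HY parent and the 986 of the LY parent. LY BIL 3 came close to both parents, and the other lines stood well below them. Rank 255 was above both parents, with 276, 378 and 341 in the HY lines, against 502, 516 and 317 in the LY lines, and 262 and 245 in the HY and LY parents. Ranks 152 and 255 were chosen after their values were seen.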

How the data were processed

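RNA from 1 g of fibre per genotype was labelled from 10 micrograms and hybridized to 8 Affymetrix arrays, per the labels' protocols. The deposited table gives 1 linear intensity per probe set and array. GCOS and MAS5 are the programs listed in the submitters' processing notes. Versions and a scaling target are not given in the sources used here. The table held 24132 rows; 103 Affymetrix controls were left out, while 52 reporter rows stayed in. Values were quantile-normalized with limma 3.58.1 in R 4.3.3 and transformed as log2(value + 16), which understates changes of low signals. Rows above the lowest 40% were tested with lmFit and eBayes (intensity trend), 3 HY against 3 LY BILs. The fit was also run on simulated data with noise independent between arrays. Its outcome is not reported here and has no bearing on differences in array brightness. Each line had 1 array, so p-values measure only the joint spread between lines, sample preparations and arrays. The member list and the rules were chosen with earlier results of these data known. Members named by identifier were the 2 highest and 2 lowest per contrast (for the lines, among members with separate groups, of which 1 was lower); further members go by rank. No p-value is given for scores over the members. Alternatives covered pseudocount, scaling, filter, trend, shared probe sets, size of the member list, single arrays and the line number as a block.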

Additional observations from a re-analysis of the deposited data

How the results depend on the processing

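In limma, 0 members reached an adjusted p under 0.05 between HY and LY lines under any of 20 alternatives (lowest adjusted p from 0.318, with the line number as a block, to 1). The 4 members at an unadjusted p under 0.05 and 2-fold became 2 on the deposited values, 2 without the lowest 60%, 1 without an intensity trend, 7 with the replicate block and 0 to 16 without single arrays. Lines that share a number were not treated as pairs, since their deviations from the group means correlated at -0.24, 0.18 and 0.54 over all tested probe sets. The median line difference of 0.04 was -0.21 on the deposited values, -0.039 with cyclic loess and -0.0089 to 0.060 without single arrays. The 14 members with separate line groups were 7 on the deposited values. Members higher and lower in the HY parent, 35 and 27, were 98 and 10 on the deposited values and 74 and 16 with median centring. Of all tested probe sets, 21.5% and 4.29% were so on the deposited values and 14.7% and 6.42% with median centring. The members' median parental difference of 0.11 was 0.68 on the deposited values, 0.47 with median centring and 0.023 with cyclic loess. The 12 members with all lines outside the parents were 22 on the deposited values and 35 with median centring. Under these changes of scaling, fit and arrays, the counts at p and 2-fold covered the members only. So did the counts with separate groups and outside the parents, and none has a share of all tested probe sets beside it. The 19 plain _at members gave 0 at p and 2-fold, a median line difference of 0.25, 1 with separate groups, 2 and 2 between the parents (median 0.18) and 1 outside the parents. The 150 highest gave 1, then 8 with separate groups, 20 and 11 between the parents (median 0.16) and 3 outside. The 600 highest gave 9, then 27 with separate groups and 61 and 79 between the parents (median 0.030). The difference in position moved by less than 1 SD of the lines (0.302) from its 0.12 under all 16 alternatives (-0.17 to 0.29). That in signal share moved by less than 1 SD (0.322 percentage points) from its -0.16 under all 9 (-0.42, without HY BIL 2, to 0.01). The signs of the 11 members followed one by one did not turn in their own contrast. The causes of these changes were not tested.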
